A study of Homo sapiens with 4 samples.

Results

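The genes described here encode the kinases of SR proteins (CLK1, CLK2, CLK3, SRPK1 and SRPK2) and 5 SR-related proteins (SCAF1, ACIN1, SRRM1, SRRM2 and SON). They were chosen by name, with earlier results of these data known, as 10 genes of the 20052 annotated protein-coding genes. A gene not named in a peak table was counted as having no peak. N7-methylguanosine (m7G) enrichment was measured in untreated U2OS cells, an established human osteosarcoma line. An antibody to m7G was used to pull down polyadenylated RNA, and the series holds 2 libraries of this immunoprecipitate (IP) and 2 of the input RNA, all from the same untreated line. Every value below is from the peak table of IP replicate 1 or of IP replicate 2, with input entering only through the authors' fold enrichment. The tables hold 4326 and 4862 peaks and no read counts, so the depth behind a peak is unknown, and separate cultures are not stated for the replicates, so the spread between them may be technical. Of 6 mesenchymal and bone genes listed to check the cell line, 4 had overlapping peaks in both tables (COL1A1, COL5A1, VIM and SPARC). COL1A2 and RUNX2 did not, and the share over all protein-coding genes was 10.5%. The tables measure enrichment and not expression.

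SR proteins bind pre-mRNA and carry a domain rich in arginine and serine whose phosphorylation sets where they are in the cell and whether they can act in splicing. SRPK kinases phosphorylate that domain mainly in the cytoplasm, which lets the import receptor TNPO3 carry SR proteins into the nucleus, and CLK kinases phosphorylate it further in the nucleus and release SR proteins from nuclear speckles. SR-related proteins carry a similar domain and help assemble the splicing machinery, the exon junction complex or the speckle itself. m7G forms the cap at the 5′ end of every mRNA and has also been mapped at internal positions, so an antibody to it can enrich both.

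A peak was listed for 4 of the 10 genes in replicate 1 and for 5 in replicate 2. Over all protein-coding genes the shares were 15.9% and 17.4%. Peaks of CLK2, SCAF1, ACIN1 and SRRM2 coincided in the tables and are here called shared (an overlap of at least 1 bp on the same strand, keeping mutually best overlaps). That is 4 of 10 genes, beside 10.5% of all protein-coding genes. SRRM1 had peaks in replicate 2 only, and CLK1, CLK3, SRPK1, SRPK2 and SON had none in either table. Among the kinases 1 of 5 had a shared peak, and among the SR-related genes 3 of 5. All 4 genes with a peak in replicate 1 had a shared one, as did 65.8% of all protein-coding genes with a peak there. A gene must be expressed to carry a peak, and since expression is not given in the tables, the part of expression in these counts was not tested.

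Blocks shared by both replicates began within the first 22 transcribed bases of CLK2, SCAF1 and SRRM2, or before them. Whether the cap gave rise to these peaks was not tested. The sequences below show where coverage in both replicates begins. Each runs from 30 bases before to 30 bases after a RefSeq transcript start (GRCh38.p14), 5′ to 3′ on the gene's strand, so the transcribed part is the last 30 letters. Capitals mark bases covered by a peak in both replicates. The windows are chr1:155273475-155273534 for CLK2 (minus strand), chr19:49642179-49642238 for SCAF1 (plus strand) and chr16:2752608-2752667 for SRRM2 (plus strand).
CLK2: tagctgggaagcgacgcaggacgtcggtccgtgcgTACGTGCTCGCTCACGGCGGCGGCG
SCAF1: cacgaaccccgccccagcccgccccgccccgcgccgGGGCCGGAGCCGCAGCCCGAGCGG
SRRM2: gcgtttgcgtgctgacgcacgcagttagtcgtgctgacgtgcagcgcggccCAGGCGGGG

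For contrast, the same windows are shown for CLK1 (chr2:200864629-200864688, minus strand), SRPK1 (chr6:35921069-35921128, minus strand) and SON (chr21:33543008-33543067, plus strand), which had no peak and hence no capitals.
CLK1: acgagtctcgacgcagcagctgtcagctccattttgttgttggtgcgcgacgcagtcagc
SRPK1: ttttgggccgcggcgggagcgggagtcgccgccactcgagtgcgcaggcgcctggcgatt
SON: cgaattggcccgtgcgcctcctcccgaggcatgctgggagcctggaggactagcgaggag

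In the first 50 transcribed bases the GC content was 76% for CLK2, 84% for SCAF1 and 74% for SRRM2. Over the RefSeq starts of the other 7 genes, none touched by a peak, it ran from 48% at an SRPK2 start to 74% at starts of SRPK2, CLK3 and SRRM1, with 54% at the CLK1 start shown, 68% for SRPK1 and 62% for SON. The highest of these equal the value at the SRRM2 start. The median over 35116 RefSeq start windows was 60% (interquartile range 50 to 70%), and over the 621 windows of genes with a shared peak at a start it was 72%. The transcripts of CLK2 and SRRM2 both begin with GTGC, as do 0.618% of all windows, and both hold ACGTGC on the sense strand within 50 bases, as do 0.589% (0.547% on the other strand). That likeness was noticed only when the sequences were read. GGCGGC was present on the sense strand for CLK2 and SCAF1 and absent for SRRM2, but it was also present at all 3 starts of SRRM1, which no peak touched, and 8.17% of all windows hold it (5.16% on the other strand). GANGAN, with N for any base, was on neither strand of the first 50 bases of CLK2, SCAF1 and SRRM2, and was on the sense strand at starts with no peak, those of SON and CLK3 and 1 each of SRPK2 and ACIN1. Over all windows 19.6% hold it on the sense strand and 16.4% on the other. These are matches of letters in a window and do not show a modified base.

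CLK2, a nuclear kinase of the CLK family, had the highest fold among the 10 genes. Its peak was enriched 55.5-fold over input in replicate 1 and 20-fold in replicate 2. Both values lay far up their tables, at the 99.1st and 97th percentile of all folds, but the replicates differed by a factor of 2.78. The log2 difference (replicate 2 minus replicate 1) was -1.47, a gap larger in size than or equal to that of 96.7% of all shared peaks. The authors' p-values were 2e-11 and 6.8e-08. Both folds were whole multiples (within 0.05) of the most frequent fold of at least 10 in their table, 3 times 18.5 and 2 times 10. The fold of 10.3 at SRRM2 in replicate 1 was not such a multiple. The most frequent folds themselves were listed for 67 peaks in replicate 1 and 60 in replicate 2. The share of all folds of at least 10 that are such multiples is not given here, so this trait is not shown to be particular to CLK2.

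The CLK2 peak lay on chromosome 1, minus strand, from 155273231 to 155273499 in replicate 2. In replicate 1 its main block ran from 155273201 to 155273529, and a block of 30 nt lay 2223 nt downstream in the gene. The midpoint of the joined blocks was 154 and 139 nt from the annotated start, and the first covered base was 25 bases before the RefSeq start in replicate 1 and base 6 of the transcript in replicate 2. Block edges are not exact to the base: 92.8% and 92.9% of single-block peaks had a length within 1 nt of a multiple of 30. No other peak was listed on the 10637 nt of the gene.

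CLK1 and CLK3, the close relatives of CLK2, had no peak, and neither did SRPK1 or SRPK2. RefSeq gives 2 starts for CLK1, 2 for CLK3, 1 for SRPK1 and 4 for SRPK2, and no block of either table touched any of them. No peak under another gene's name lay within the span of any of the 10 genes, so none was missed through naming. The tables list only peaks past the authors' threshold (the weakest false discovery rates were 0.0490 and 0.0479), and an enrichment below it would not be seen.

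**Figure D1:**
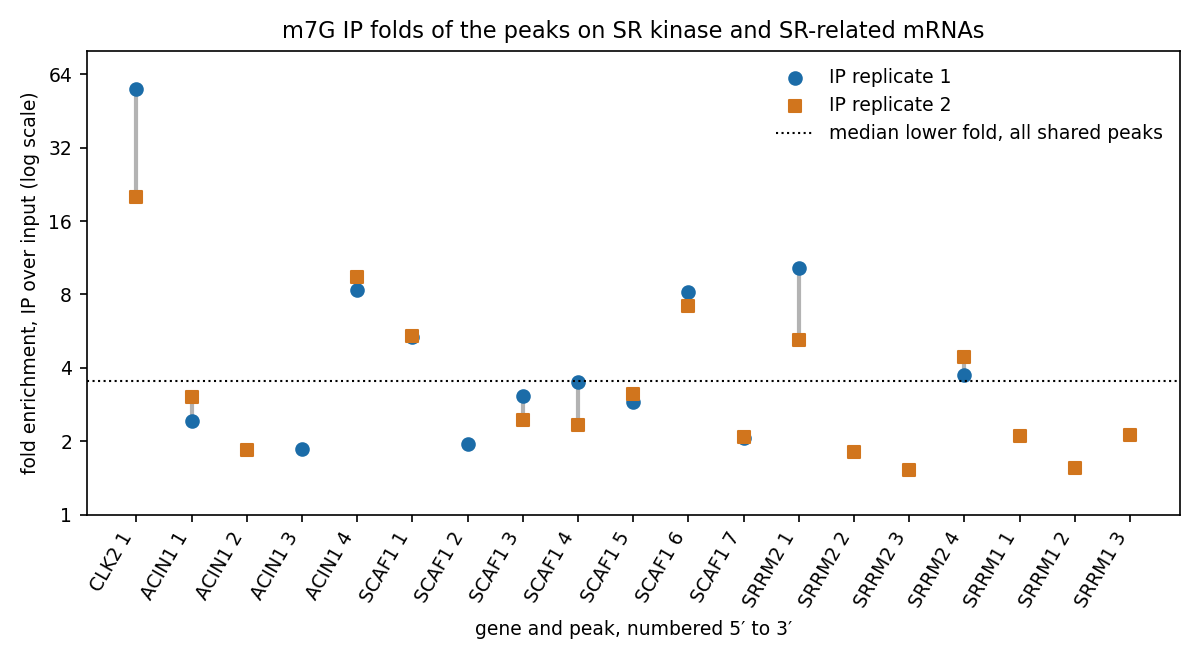
Fold enrichment of IP over input (vertical log scale) for every peak on the 5 genes with any, numbered 5′ to 3′ within each gene; circles are replicate 1, squares replicate 2, grey bars join shared peaks, and the dotted line is the median lower fold of all shared peaks (3.53). CLK2 is highest at 55.5 and 20, and every peak listed in a single replicate is at 2.12 or lower; the region of ACIN1 peak 3 falls inside ACIN1 peak 4 in replicate 2.

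SCAF1, which encodes a partner of the tail of RNA polymerase II that carries an arginine- and serine-rich region, had the most peaks of the 10 genes. There were 7 in replicate 1 and 6 in replicate 2, of which 6 were shared. Over all protein-coding genes with a shared peak, 80.4% had 1 and 15.6% had 2. As many or more were found on AGRN, which encodes the matrix proteoglycan agrin (7), and POU3F3, a neural transcription factor (6). The folds set these apart. The shared peak that was strongest by the lower fold of both replicates had 2.37 and 1.84 on AGRN. It had 74 and 135 on POU3F3, and 8.20 and 7.17 on SCAF1.

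The first SCAF1 peak was enriched 5.35-fold in replicate 1 and 5.42-fold in replicate 2. It had 3 blocks in both replicates on chromosome 19, plus strand. The first block ended at 49642242 in both and began at 49642215 in replicate 1 and 49642185 in replicate 2, that is, at base 7 of the RefSeq transcript and 24 bases before it. The second block, from 49645021 to 49645134, was the same in both, and the third began at 49645354. The intervals between blocks were 2778 and 219 nt in both replicates. The RefSeq start lies 1744 nt inside the annotated span of the gene, and the peak midpoint was 4617 and 4588 nt from the start of that span. A distance to the gene start alone would place this peak inside the gene. Its first block lies at the transcript start, from base 7 on in replicate 1 and across the first base in replicate 2.

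The next 4 shared peaks of SCAF1 were crowded into 2157 nt, from 49651434 to 49653590. Their folds were 3.07 and 2.45 for the first and 3.49 and 2.34 for the second. The next had 2.89 and 3.12, and the last of the 4 was the strongest of the gene, at 8.20 and 7.17. They were single blocks, separated by 209 to 508 nt among shared peaks in replicate 2. The strongest ran from 49653111 to 49653590 in replicate 1 and from 49653141 in replicate 2, and both tables agreed on 93.8% of the bases either covered. Its p-values were 5e-21 and 2.5e-19. A weak further peak, from 49651284 to 49651344, was listed in replicate 1 only (1.95-fold, p = 0.00026 in the authors' table).

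The last SCAF1 peak lay at the 3′ end of the gene, from 49658439 to 49658649 in both tables, with its midpoint 98 nt from the annotated end. Its folds were 2.06 and 2.08. Both replicates thus listed SCAF1 peaks at the RefSeq start, in the interior of the gene span and at its end, and the highest fold was at an interior peak. Position along the spliced mRNA was not measured. In all, SCAF1 peaks covered 1802 nt in replicate 1 and 1473 nt in replicate 2, of which 1353 nt were in both.

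**Figure D2:**
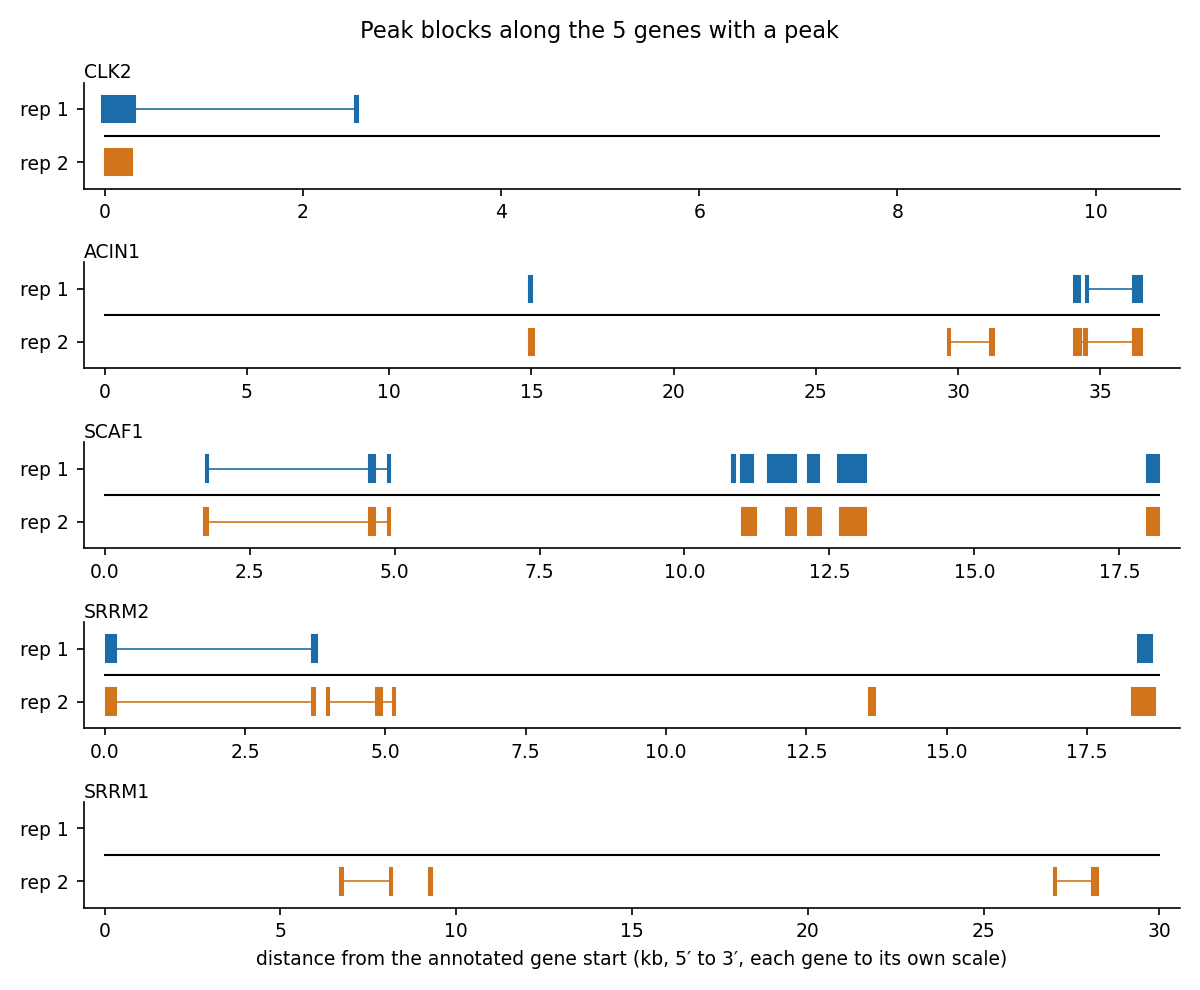
Blocks of each peak along the 5 genes with a peak, from the annotated gene start at 0 (horizontal axis in kb, each gene to its own scale); replicate 1 is above and replicate 2 below the gene line, and thin lines join the blocks of a peak. CLK2 and SRRM2 have blocks at the gene start in both replicates, SCAF1 has 4 shared peaks crowded into 2157 nt in the interior of the gene, and SRRM1 has blocks in replicate 2 only.

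ACIN1 encodes acinus, a scaffold of the ASAP complex that joins the exon junction complex. Its main peak was enriched 8.33-fold in replicate 1 and 9.46-fold in replicate 2. It was the most significant of the 10 genes, with p-values of 1e-107 and 1e-101, rank 40 of 4326 and rank 53 of 4862. The replicates thus placed it alike, and their folds differed by a factor of 1.14. CLK2 had a higher fold and a far larger p-value, so fold and significance rank these genes differently.

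The main ACIN1 peak lay toward the 3′ end, on chromosome 14, minus strand, from 23059132 to 23061130 in replicate 1 and to 23061541 in replicate 2. Its largest block, 343 nt from 23059132 to 23059474, was the same in both. Replicate 1 listed the stretch from 23061332 to 23061541 as a separate peak of 1.86-fold, and replicate 2 joined it to the main peak as another block. The separate peak therefore overlaps a replicate 2 peak but is not counted as shared. The midpoint of the joined blocks was 762 nt from the annotated gene end in replicate 1 and 2520 nt in replicate 2 because of that joining.

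A weaker shared peak of ACIN1 lay from 23080582 to 23080701 in replicate 1 and from 23080522 to the same end in replicate 2, at 2.41-fold and 3.03-fold. It was far from any start or end, with its midpoint 14973 and 15003 nt from the annotated start, and the span of the long noncoding RNA LOC124903288 also covers it. A peak of 1.84-fold from 23064369 to 23065968 was listed in replicate 2 only. RefSeq gives 3 starts for ACIN1, and no peak touched any of them.

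SRRM2, a large scaffold protein of nuclear speckles, had a shared peak at each end of the gene. At the start the fold was 10.3 in replicate 1 and 5.18 in replicate 2, and at the end it was 3.74 and 4.41. Replicate 1 was the higher at the start, by a factor of 1.99, and replicate 2 at the end, by 1.18. The order of the ends was the same in both replicates, start above end, but the gap between them was small in replicate 2.

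The SRRM2 start peak lay on chromosome 16, plus strand, from 2752659, base 22 of the RefSeq transcript, with a first block of 188 nt in both tables. Its second block began at 2756334 in both, 3487 nt further on. The p-values were 1e-24 and 1.3e-13. The end peak ran from 2771052 to 2771292 in replicate 1 and from 2770932 to 2771352 in replicate 2, with midpoints 240 and 270 nt from the annotated gene end. Its p-values were 1e-21 and 1.6e-40, so the replicate with the higher fold also gave the smaller p-value at each end. Replicate 2 listed weak peaks in between, of 1.81-fold from 2756595 and 1.52-fold from 2766245, that replicate 1 did not.

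SRRM1, a splicing coactivator that binds the exon junction complex, had no peak in replicate 1 and 3 in replicate 2. Their folds were 2.10, 1.55 and 2.12, on chromosome 1 from 24649999, 24652529 and 24670312, plus strand. All 3 lay in the lowest 24.6% of folds in that table. Their false discovery rates were 1.58e-05, 0.00741 and 0.000759. No replicate value is available to set beside them, and whether SRRM1 differs from SRRM2 was not tested. SON, the other large speckle scaffold, had no peak in either table over its 34444 nt.

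**Figure D3:**
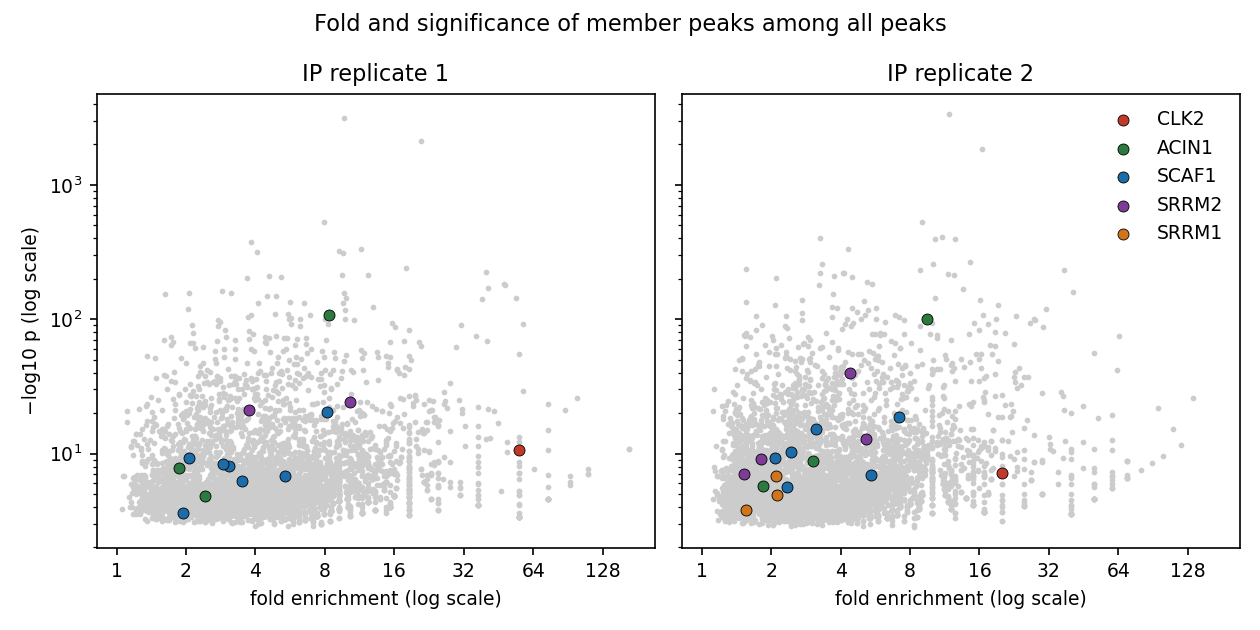
Fold enrichment (horizontal log scale) against −log10 p (vertical log scale) of all peaks in each replicate, in grey, with the peaks on the 5 genes coloured; 5 and 8 peaks with p listed as 0 are left out. The main ACIN1 peak is high in significance at 8.33 and 9.46, and CLK2 is far to the right at 55.5 and 20 with p-values of 2e-11 and 6.8e-08.

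The 10 genes held 13 peaks in replicate 1 and 17 in replicate 2, and 11 were shared. The median lower-of-both fold of the 11 was 3.74, beside 3.53 over all 2642 shared peaks (interquartile range 2.21 to 5.67). Both replicates were at 4-fold or above for 5 of the 11, 1 each on CLK2, ACIN1 and SRRM2 and 2 on SCAF1, beside 42.9% of all shared peaks. By these measures the peaks lay near the middle of all shared peaks. The median absolute log2 difference between replicates was 0.24 for the 11 and 0.30 for all, factors of 1.18 and 1.23. CLK2 and the SRRM2 start peak had the widest gaps, with log2 differences of -1.47 and -0.99, and both lie at transcript starts. The start peak of SCAF1 had 0.02. Replicate 1 had the higher fold at 5 of the 11, beside 55.5% of all shared peaks, and replicate 2 at 6.

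Counted by position, 3 of the 11 shared peaks touched the first 50 transcribed bases of a RefSeq start in both replicates, beside 17.3% of all shared peaks. By midpoint, 2 of the 11 (SCAF1 and SRRM2) lay within 1000 nt of the annotated gene end in both replicates, beside 14.8% of all. As shares of the 11 these are 27.3% and 18.2%, and no test of either difference was made. The main ACIN1 peak was not counted near the end, since its midpoint was 762 nt from it in replicate 1 and 2520 nt in replicate 2. More than 1 block in both replicates was listed for 3 of the 11, beside 31% of all shared peaks. They were those at the SCAF1 and SRRM2 starts and the main ACIN1 peak.

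Other genes of the pathway, in 5 lists of 96 genes in all, carried shared peaks on 34 genes (35.4%), again beside 10.5% of protein-coding genes. These genes too were listed by knowledge of the pathway with earlier results of these data known, and their expression is not in the tables. Of other kinases and phosphatases that act on SR proteins 10 of 20 had a shared peak. PPP1CC and PPP1CA, catalytic subunits of protein phosphatase 1, which removes phosphate from SR proteins, had 18.5 and 27.5 and 18.5 and 10.9 in replicates 1 and 2. DYRK2, a kinase related to the CLK family, had 15.9 and 8, and CDK13, a kinase of the RNA polymerase II tail, 6.94 and 7. CLK4 and SRPK3, the remaining members of the kinase families, had no peak. CDK11A (6.41 and 9) and CDK11B (2.27 and 12.5) are counted among the 10 with a shared peak. They are near-identical copies, and how reads were divided between them was not tested, so their values are uncertain.

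The substrates themselves, the SRSF family, had shared peaks on 7 of 12 genes, mostly of low fold. Each gene was ranked by its strongest shared peak, taking whichever replicate gave the smaller fold. The highest were SRSF10 (6.17 and 6.67), SRSF9 (7.49 and 4.52), SRSF4 (3.15 and 3.08) and SRSF1 (1.97 and 2.09). SRSF4 had another shared peak, with a fold of 18.5 in replicate 1 and of at most 3.08 in replicate 2. The median of each gene's strongest shared peak, as the lower of both replicates, was 1.97 for the SRSF family, 5.60 for the kinases and phosphatases and 3.96 for all protein-coding genes with a shared peak. For the 4 genes CLK2, ACIN1, SCAF1 and SRRM2 it was 7.75. These have 1, 2, 6 and 2 shared peaks, whereas 80.4% of all genes with a shared peak have 1. A gene with more peaks has more values from which its strongest is taken, so these medians are not like for like. Peak by peak the median lower fold was 3.74 for the 4 genes and 3.53 for all.

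Among 40 other SR-related genes 12 had a shared peak. SCAF8, a relative of SCAF4 that binds the polymerase tail, had 24.7 and 23.3 at a transcript start, and U2AF2, which recognises the polypyrimidine tract, had 7.96 and 10. SNRNP70, a protein of the U1 particle, had 8.41 and 5.95, and CACTIN, a spliceosome factor, 4.46 and 4.81. Of the exon junction partners of acinus 2 of 10 had a shared peak, PNN (1.90 and 2.40) and CASC3 (3.60 and 5.48). RNPS1, which binds acinus directly, had a peak in replicate 2 only, and SAP18, which completes the ASAP complex, had none. In the list for nuclear import and speckles 3 of 14 did, PABPN1, the nuclear poly(A)-binding protein (18 and 14.5), ZC3H13 (3.20 and 7.34) and SF3B2 (1.61 and 2.11). TNPO3, the import receptor of SR proteins, had none.

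**Figure D4:**
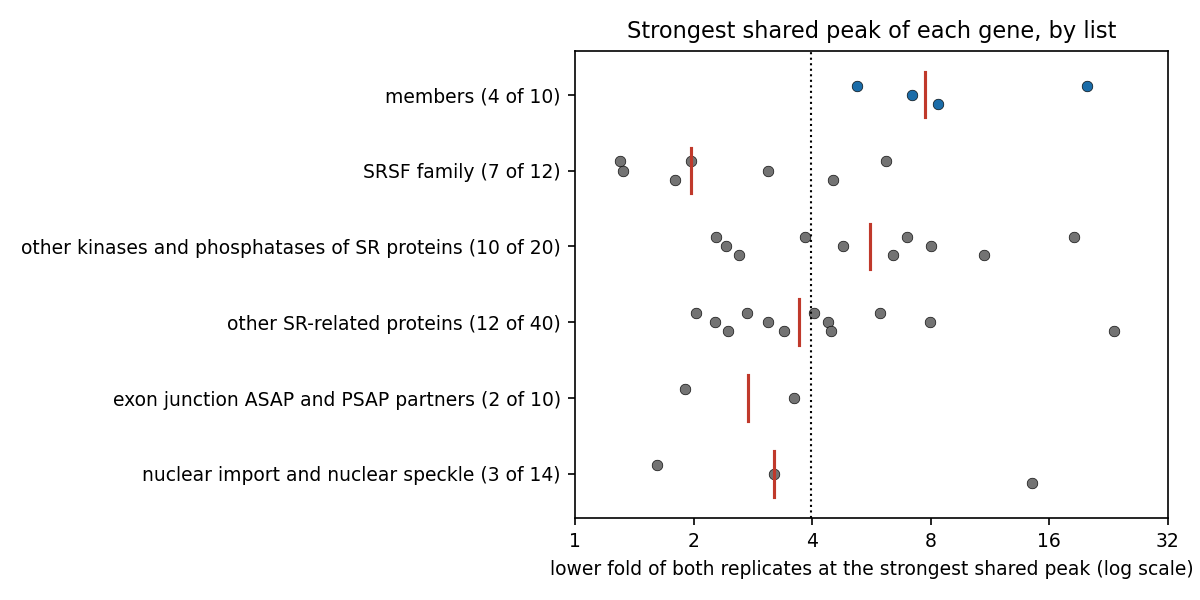
Lower fold of both replicates at the strongest shared peak of each gene (horizontal log scale), 1 point a gene, for the 10 genes described and for 5 lists of other pathway genes, with the number of genes with a shared peak of all listed; red bars are list medians and the dotted line is the median of all protein-coding genes with a shared peak (3.96). The 4 genes CLK2, ACIN1, SCAF1 and SRRM2 lie between 5.18 and 20, and the SRSF family has its median at 1.97.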

How the data were processed

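Each IP replicate has its own deposited peak table. Per the submitters' processing notes, STAR and GRCh38 were used. The sources used here name no peak caller. Per the file headers each peak has a p-value, log10 p and log10 false discovery rate (each a score). The fold over input is a linear ratio made by the authors, with unstated scaling for library size. No test was made here beyond the authors' p-values. Shared peaks were mutually best overlaps of blocks by at least 1 bp on 1 strand. The pairing was run on simulated single-block peaks whose true partners always overlapped. Split or joined peaks, such as those of ACIN1, were not tried in it. Rows were taken by gene name, and all peaks were matched to RefSeq (GRCh38.p14) by symbol or synonym within 2000 nt (99.9% and 99.8% matched). Positions are 1-based, and distances were taken at the middle base of a peak's joined blocks. RefSeq start windows were matched by gene for all 10 genes. Exon, intron and transcript-region annotation was not used here. The genes and lists were chosen with earlier results of these data known. Named are the 10 genes, up to 4 genes a list by the lower fold of both replicates, and genes with at least as many shared peaks as SCAF1. CLK4, SRPK3, CDK11A, CDK11B, RNPS1, SAP18 and TNPO3 were named after their values had been seen. Software was Python 3.11.15, numpy 2.4.6, pandas 2.3.3 and matplotlib 3.10.9.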

Additional observations from a re-analysis of the deposited data

How the results depend on the processing

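CLK2, SCAF1, ACIN1 and SRRM2 each kept a shared peak with 50% reciprocal overlap, with midpoints within 100 nt, in the more significant 50% of each table and when both folds had to be at least 4. The 11 shared peaks became 10, 9, 9 and 5 under these settings, and 13 to 17 peaks were counted when either replicate was left out. The median fold of 3.74 was 7.75 over the strongest shared peak of each gene and 5.18 in the more significant 50% of peaks, and stayed between 3.74 and 4.46 otherwise. Of the other pathway genes 15, not 34, had a shared peak with a fold of at least 4. The share of all protein-coding genes under these stricter settings is not given here. The 10.5% is for any shared peak and is no match for these counts, nor for the 4 genes named above. By midpoint 2 of the 11 shared peaks (18.2%) lay within 200 nt of the gene start, those of CLK2 and SRRM2, beside 20.7% of all shared peaks. A RefSeq start was touched by 3, beside 17.3% of all, a setting added after the data had been seen. No paired analysis was possible because no groups were compared by a test and the input libraries enter only through the deposited folds. No depth is given, so no interval for a fold could be set.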
